A study of Drosophila melanogaster with 27 samples.

Results

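The Notch pathway genes described here are the receptor N, its ligands Delta (often written Dl) and Ser, and 7 genes that act on the receptor, the ligands or the nuclear response: fng, mib1, neur, Psn, pen-2, Su(H) and mam. They were taken by name from the RefSeq gene table of the dm6 genome, where all 10 were found among the 13922 protein-coding genes of X, chromosome 4 and the 4 large autosome arms, and were read against a list of H4K20me1 peaks over their bodies and over 10 kb on either side. H4K20me1 is monomethylation of lysine 20 of histone H4, laid down by Set8. It was mapped by CUT&RUN, in which nuclease tethered by an antibody cuts out the marked chromatin for sequencing. The study asked how loss of Set8, of its catalytic activity or of the lysine itself alters the mark in the wing imaginal disc, the larval sheet of cells from which the wing and notum develop. The peaks used come from Oregon-R wild-type discs of female wandering larvae of instar 3 kept at 25 °C, with 20 discs per library, in which libraries made with an H4K20me1 antibody (n = 3) were compared by the authors with libraries made without primary antibody (n = 3). Values for the other 8 groups (21 libraries; Set8 null discs with or without a Set8wt or Set8rg transgene, and deltaHisC discs with a 12xHWT, 12xK20A or 12xK20R histone array, in part also His4rnull) were not analysed here.

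Notch is a membrane receptor that is activated by ligands on neighbouring cells. In the wing disc, Delta and Ser signal across the boundary between dorsal and ventral cells, where fng makes dorsal cells respond to one ligand and not to the other, and the wing margin forms there. Ubiquitin ligases of the signalling cell, mib1 and neur, drive endocytosis of the ligand. The pull frees the receptor for cleavage, the last cut being made by gamma-secretase (Psn and pen-2 encode subunits of it), and the released intracellular domain then acts on target genes together with Su(H) and mam.

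A list of this kind gives the place and width of each peak and no height, score or value per library. The covered share of a gene, meaning the percent of its body that lies in peaks, is therefore a value with no replicate error, no difference was tested, and the sequencing depth is unknown. Signal under the cutoff of the peak caller would not appear in it. The 6 arms held 6912 peaks with a median width of 1100 bp (range 150 to 68600 bp), and no gap between neighbouring peaks was shorter than 1050 bp. A peak is not a measure of expression. Of 6 marker genes of the wing disc epithelium, 5 had a peak (nub, ap, sd, rn and Dll, but not vg). So did 1 of 3 neuronal markers, 2 of 3 muscle markers and none of the 3 hemocyte and 3 fat body markers. Over all protein-coding genes the share was 38.3%. The median covered share was 15.9% for the epithelium, 0.477% for muscle and 0% for neurons, hemocytes and fat body. These markers were counted only and do not name the tissue.

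H4K20me1 covered most of the body in 7 of the 10 genes and little or none in the other 3. A peak overlapped the body by at least 1 bp in 9 genes, where 38.3% of all protein-coding genes had one. At least 50% of the body was covered in 7 genes (18.3% of all protein-coding genes), and the whole body in Psn and pen-2 (4.57%). The median covered share was 79.3% over the 10 genes and 0% over all protein-coding genes. Among the 5339 protein-coding genes with a peak the median was 46.9%. The genes fell into a marked set from 58.3% (Delta) to 100%, and a set of neur, Su(H) and mam from 0% to 11.9%. Because the list of genes was drawn up with results of these data known, these counts describe it and are not evidence that it stands apart.

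**Figure D1:**
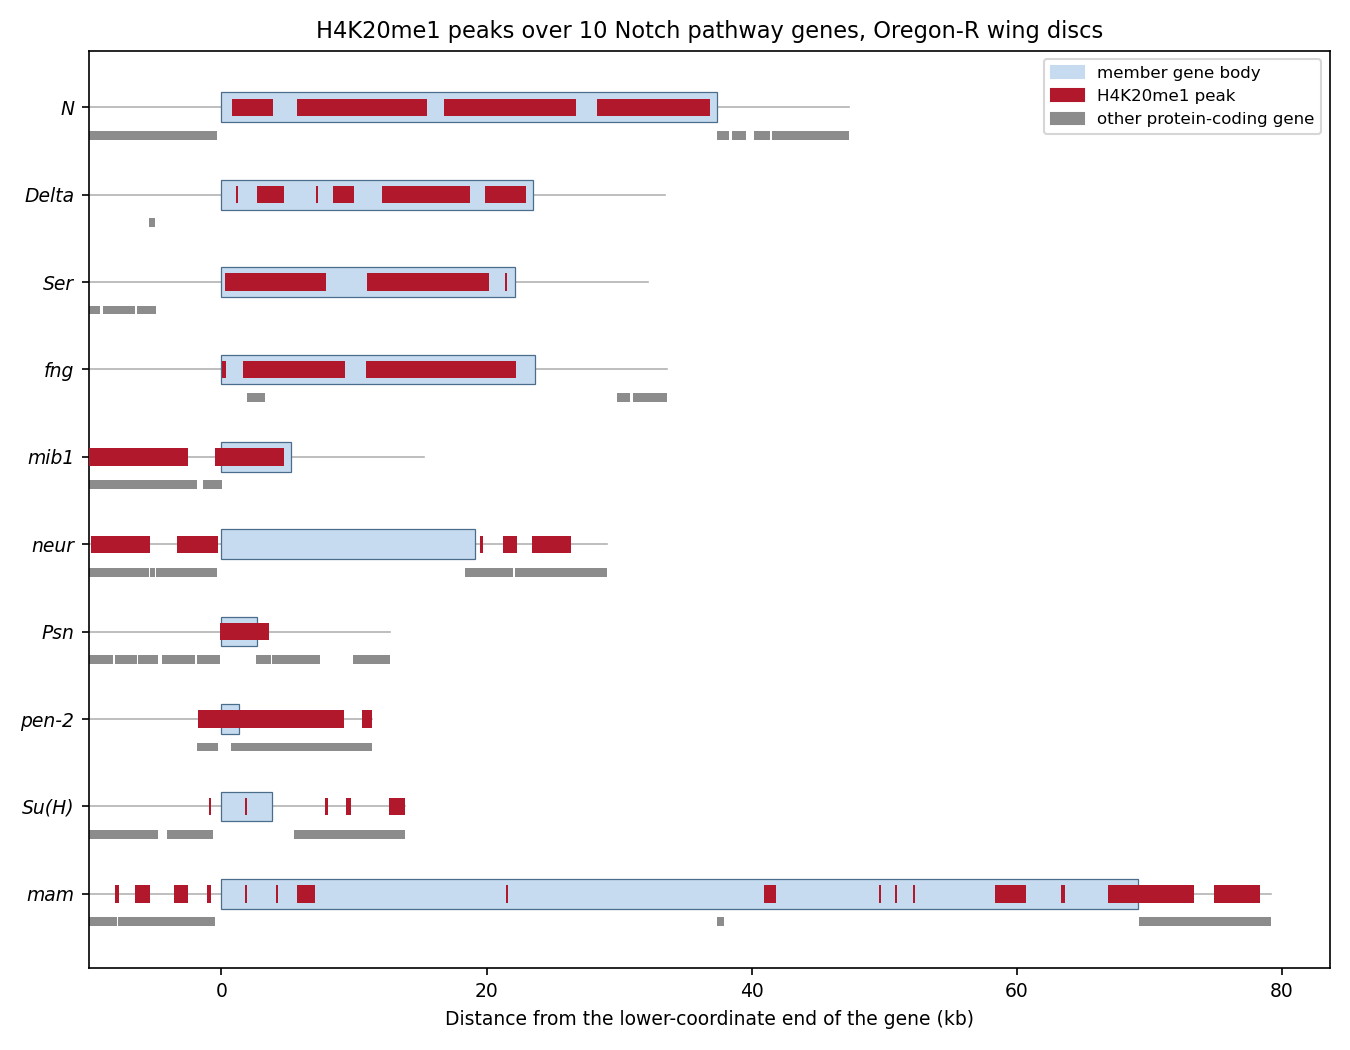
Map of the 10 genes, each with 10 kb on either side; the x axis gives the distance from the lower-coordinate end of the gene in kb, pale boxes are gene bodies, dark boxes are H4K20me1 peaks of Oregon-R discs and grey boxes below are other protein-coding genes. Peaks cover 58.3% to 84.1% of N, Delta, Ser and fng and none of the 10 kb on either side, whereas neur has no peak and its flanks hold 5.

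The receptor gene N (X 3134870 to 3172221, 37352 bp) held 4 peaks that together covered 31400 bp, or 84.1% of the gene. From the lower-coordinate end they were 3100, 9750, 10000 and 8550 bp wide, with gaps of 1850, 1300 and 1550 bp between them. All 4 lay inside the gene: the first began 781 bp from one end and the last stopped 471 bp from the other. N is thus marked from near one end to near the other, in 4 blocks. Among the 1392 protein-coding genes in the longest 10% (length decile 10), 51.9% had a peak and 16.1% were covered over at least 50%, and 96.4% had a lower covered share than N. By covered sequence N ranked 65th among all protein-coding genes.

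The surroundings of N were bare. The adhesion gene kirre, which mediates myoblast fusion, ends 337 bp away on the lower side and is covered over 1.69% of its 394149 bp. On the other side CG18508 starts after 46 bp, and Fcp3C, CG3939 and the phosphodiesterase gene dnc follow within 10 kb, all without a peak. The nearest peak outside N lay 162769 bp below it and 202179 bp above it, so that the 4 peaks of N were the only ones in 402300 bp. Of 2548 protein-coding genes covered over at least 50% with a peak on each side on their arm, N ranked 3rd by the distance to its nearest outside peak, for which the median of these genes was 0 bp since a peak of most of them runs past an end of the gene. Among the 372 of them of 10 kb or more the median was 174 bp (upper quartile 3062 bp), and N ranked 2nd.

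Delta and Ser encode the transmembrane ligands of Notch, and both carried the mark inside the gene and not around it. Delta (3R 19302731 to 19326217, 23487 bp) held 6 peaks, of 150, 2050, 150, 1600, 6650 and 3100 bp in order of coordinates, which covered 13700 bp (58.3%). Its cover was the most broken of the marked genes and was denser towards the higher-coordinate end, where the last 2 peaks hold 9750 bp. Ser (3R 27172090 to 27194267, 22178 bp) held peaks of 7650, 9200 and 150 bp, which covered 17000 bp (76.7%). A gap of 3050 bp separates its 2 wide peaks, and this is the longest gap within any of the marked genes. In length decile 10, 86.6% of genes had a lower covered share than Delta and 93.7% a lower one than Ser.

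No gene overlaps either ligand gene, so their peaks lie in no other annotated gene. The outermost peaks of Delta stopped 1070 and 517 bp inside its ends and those of Ser 261 and 667 bp inside. The nearest outside peak was 76633 bp from Delta and 17839 bp from Ser, which ranked 9th and 67th by this distance among the same 2548 genes as N. Among the 372 of these genes of 10 kb or more, Delta ranked 5th and Ser 34th. These neighbours had no peak: CG44174 lies 5035 bp below Delta and CG43203 27833 bp above it, and CG42813 lies 32802 bp above Ser.

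The glycosyltransferase gene fng, whose product extends O-fucose on the EGF repeats of Notch and so biases the receptor towards Delta, had the same form. In fng (3L 20925891 to 20949512, 23622 bp) peaks of 350, 7700 and 11300 bp covered 19350 bp (81.9%), more than in 95.8% of genes of its length decile. The gaps were 1250 and 1600 bp. The widest of these peaks exceeded 96.4% of all peaks in width. The small gene CG10589 lies within fng under the 7700 bp peak and is covered completely. Without the shared 1365 bp, fng was covered to 80.8%. The nearest outside peak lay 45538 bp away (ranked 28th of the 2548 genes, and 17th of the 372 of 10 kb or more). The nearest coding genes not overlapping fng, CG11458 at 19559 bp and Sems at 6242 bp, had no peak.

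N, Delta, Ser and fng together held 16 peaks with 81450 bp, all inside the genes, and no peak in the 80 kb of their flanks. Of 373 long protein-coding genes (10 kb or more) covered over at least 50%, 14.2% had no peak in either 10 kb flank. Among such genes of any length it was 3.92%. In the 7 marked Notch genes it was 4, the 4 longest. This comparison was chosen after the values were seen and was not tested.

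**Figure D2:**
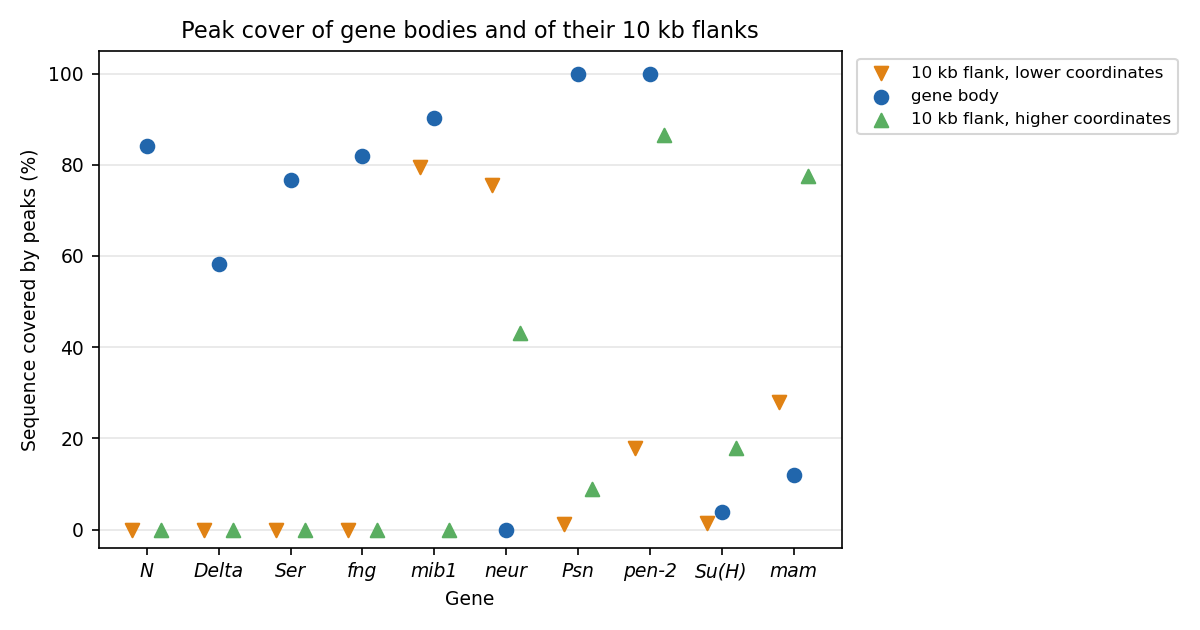
Percent of sequence covered by H4K20me1 peaks (y axis) in the body of each gene (circles), in the 10 kb below it (downward triangles) and in the 10 kb above it (upward triangles), by genome coordinate. N, Delta, Ser and fng have covered bodies from 58.3% to 84.1% and flanks at 0%, whereas neur has a body at 0% and flanks at 75.5% and 43.0%.

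The ubiquitin ligase genes of ligand endocytosis differed widely in cover. In mib1 (3L 16006552 to 16011812, 5261 bp), which encodes the ligase needed for ligand activity over most of the wing disc, a single peak of 5200 bp covered 4749 bp (90.3%). It ran 451 bp past the lower end into mRpS31, a mitochondrial ribosomal protein gene that shares 48 bp with mib1 and is covered to 35.5%, and stopped 512 bp short of the other end. In its length decile 56.5% of genes had a peak, and 91.6% had a lower covered share. A separate peak of 10550 bp began 2501 bp below mib1 and lay wholly within hzg, covering 87.4% of it. No peak lay in the 10 kb above mib1, where the nearest peak is 25938 bp away, and the Wnt deacylase gene Notum, 11667 bp above it, had none.

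No peak lay in neur (3R 9020348 to 9039471, 19124 bp), which encodes the ligase used chiefly in sensory organ precursors. Peaks came close on either side: one of 3100 bp ended 247 bp below the gene and one of 250 bp began 379 bp above it. The lower one covered tgo, a bHLH-PAS transcription factor gene 325 bp away, to 93.0%, and the next one, of 4450 bp, covered Kcmf1 to 95.3%. On the upper side hyx, the gene of a Paf1 complex subunit that shares 712 bp with neur, was covered to 27.8%, Nmdmc, 3036 bp away, to 39.05% and the NF-kappaB gene Rel to 67.7%. Sf3b5, CG11986 and Mst85C, which also lie in or reach into the flanks, had no peak. The flanks of neur were thus covered to 75.5% and 43.0% while the gene itself was free, including asRNA:CR31429 within it. Among 921 protein-coding genes of this size class (10 kb or more) without a peak, 15.6% had peaks in both 10 kb flanks. Of the 918 such genes that have a peak on each side on their arm, 0.654% had a peak within 1 kb on both sides. The last measure was chosen after the map was seen.

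The gamma-secretase genes Psn and pen-2 were covered completely, each by 1 peak that ran on into other genes. Psn (3L 20432468 to 20435156, 2689 bp) encodes presenilin, the catalytic subunit. Its peak of 3700 bp reached 117 bp past one end, 11 bp of this in the lipoic acid synthase gene Las, and 894 bp past the other. There it covered 85.5% of mRpL15, a mitochondrial ribosomal protein gene that shares 47 bp with Psn. CtIP, 1093 bp above Psn, had no peak. In length decile 6, 41.8% of genes had a peak and 95.4% had a lower covered share.

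pen-2 (2R 18277439 to 18278762) encodes a small subunit needed for maturation of presenilin and is the shortest of the 10 genes, at 1324 bp. It lay within a peak of 11050 bp of which 9726 bp fell outside it. This peak ran 1788 bp past the lower end, covering 97.2% of the nuclear envelope gene Ote, and 7938 bp past the upper end, with 8503 bp in the corepressor gene sbb, which shares 565 bp with pen-2. A second peak, of 2350 bp, began 9288 bp above pen-2 and overlapped sbb and CG14502, which starts 9933 bp above pen-2 and is covered to 59.3%. In its length decile (28.7% with a peak) 92.5% of genes had a lower covered share. A peak that wide over so short a gene cannot be assigned to pen-2, Ote or sbb from the list.

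The nuclear genes Su(H) and mam had peaks in the body but little cover. Su(H) (2L 15039488 to 15043334, 3847 bp) encodes the DNA-binding factor that brings the Notch intracellular domain to its targets. It held 1 peak of 150 bp, the narrowest width in the list, in the middle of the gene (3.90% covered). In length decile 7, 49.4% of genes had a peak and 52.4% had a lower covered share, so Su(H) stood near the middle of genes of its length. Its neighbourhood was sparsely marked too, with a peak of 150 bp in CIAPIN1, 787 bp below, and peaks of 200, 400 and 1200 bp within 10 kb above, all in the myosin VIIA gene ck.

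mam (2R 13991203 to 14060356) encodes the coactivator of the complex and is the longest of the 10 genes, at 69154 bp. It held the most peaks, 11, yet they covered 8206 bp (11.9%), above 63.1% of genes in its length decile. Of these peaks, 5 had the narrowest width of 150 bp, and gaps reached 19250 bp. The widest, of 6550 bp, straddled the higher-coordinate end: 2306 bp lay in mam and 4244 bp beyond it, mostly in Prosap, a Shank-type scaffold gene that starts 99 bp away and is covered to 58.5%. The lower flank held 4 peaks of 250 to 1150 bp, 3 of which touch RN-tre, a Rab GTPase-activating protein gene covered to 40.5%. CG8067 and Ctf4, further below, were covered to 19.95% and 3.96%. CG18371 and mir-4978, inside mam, had no peak. Per unit of sequence mam was thus less marked than either of its flanks, which were covered to 28.0% and 77.4%.

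Peaks reached into a 10 kb flank in 6 of the 10 genes, where 69.5% of all protein-coding genes had peak sequence in a flank. The 31 peaks that overlap the 10 gene bodies included 11 of at least 5 kb and 9 of the narrowest width, and 4 of them ran past an end of the gene, in mib1, Psn, pen-2 and mam.

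**Figure D3:**
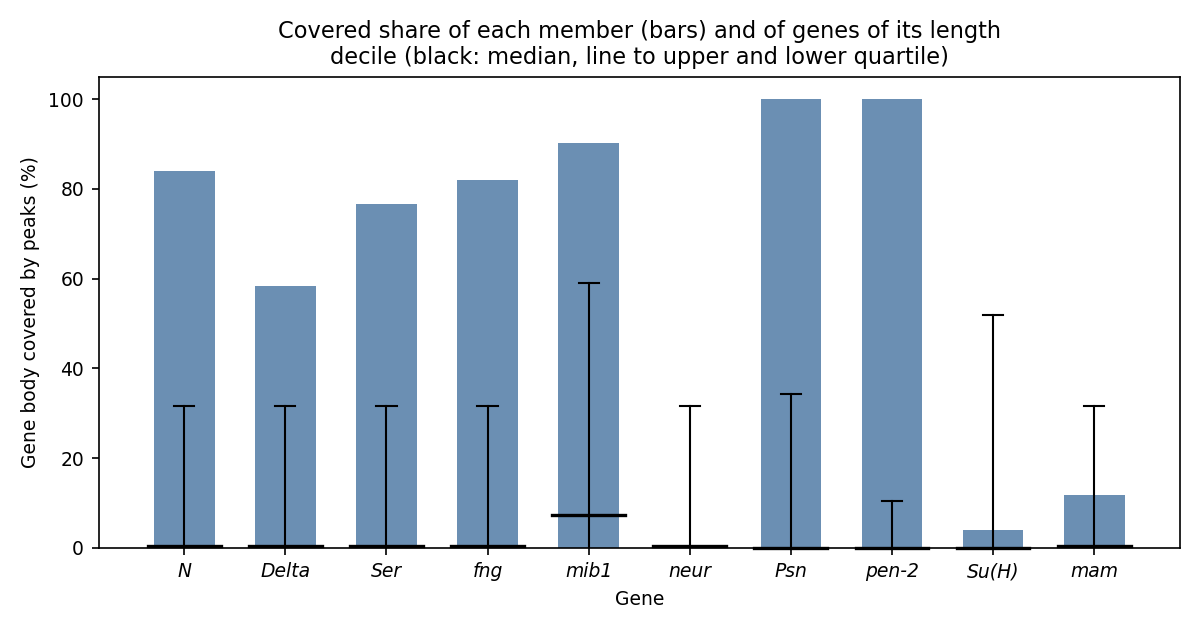
Percent of each gene body covered by H4K20me1 peaks (bars), with the median (thick line) and the quartiles (thin line) of protein-coding genes of the same length decile. The 7 marked genes stand above the upper quartile of their decile and neur, Su(H) and mam below it.

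Other genes of the pathway, listed by role, had a peak in 35 of 50 cases (38.3% of all protein-coding genes) and were covered over at least 50% in 22 (18.3% of all), and the median covered share was 34.5% against 0% over all. These and the counts by role were not matched for gene length, describe the lists and were not tested. In length deciles 7, 8 and 10, which hold some of these genes, 49.4%, 56.5% and 51.9% of protein-coding genes had a peak. Others, such as Su(dx), Chc and gro, fall into decile 9. Its share with a peak was not computed, and its median covered share was 5.785%. Both remaining gamma-secretase genes had a peak, aph-1 at 100% and Nct at 71.9%. All 5 further ubiquitin ligase genes of receptor or ligand had one (median 74.9%), led by Su(dx) at 94.4% and dx at 93.4%, which act on the receptor. Peaks were also present in all 11 genes of endocytosis and trafficking (median 51.5%), with the ESCRT genes Vps25 and TSG101 covered completely, and in all 6 corepressor and cofactor genes (median 59.5%), led by gro at 82.1% and CtBP at 77.8%.

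Genes that mature, shed or glycosylate the receptor were mixed. Of 8 protease and tetraspanin genes 6 had a peak (median 22.6%). The furin gene Fur2 was covered to 86.6% and the ADAM metalloprotease gene Kul to 75.02%, and Tsp26A was the longest without a peak. Of 6 glycosylation genes 3 had one (median 11.05%): Gmer, which makes GDP-fucose, at 87.8%, O-fut1, which places the O-fucose that fng extends, at 64.9%, and rumi, a protein O-glucosyltransferase gene, at 22.1%. Efr, a GDP-fucose transporter gene, was the longest without a peak. Over all protein-coding genes 38.3% had a peak. The share was 28.7% in length decile 3, which holds Gmer, and 41.8% in decile 6, which holds Efr. For deciles 4 and 5, which hold the other glycosylation genes, it was not computed.

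Target genes of Notch were described in the same way. None of the 4 wing margin targets wg, ct, vg and dpn had a peak in the body, and the transcription factor gene ct is the longest of them at 70432 bp. Here dpn falls into length decile 7 and ct and vg into decile 10, in which 49.4% and 51.9% of all protein-coding genes had a peak. Many genes of the lengths of dpn, ct and vg thus had none either. For wg, which falls into length decile 9, this share was not computed. In the Bearded family of small antagonists of neur, 2 of 8 genes had a peak, E(spl)m2-BFM covered to 71.8% and Tom to 62.9%, and Ocho was the longest without one. These genes are 532 to 1193 bp long and fall into length deciles 1 to 3, in which 11.8%, 16.6% and 28.7% of all protein-coding genes had a peak, so that the count of the family is near that of genes of its length.

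**Figure D4:**
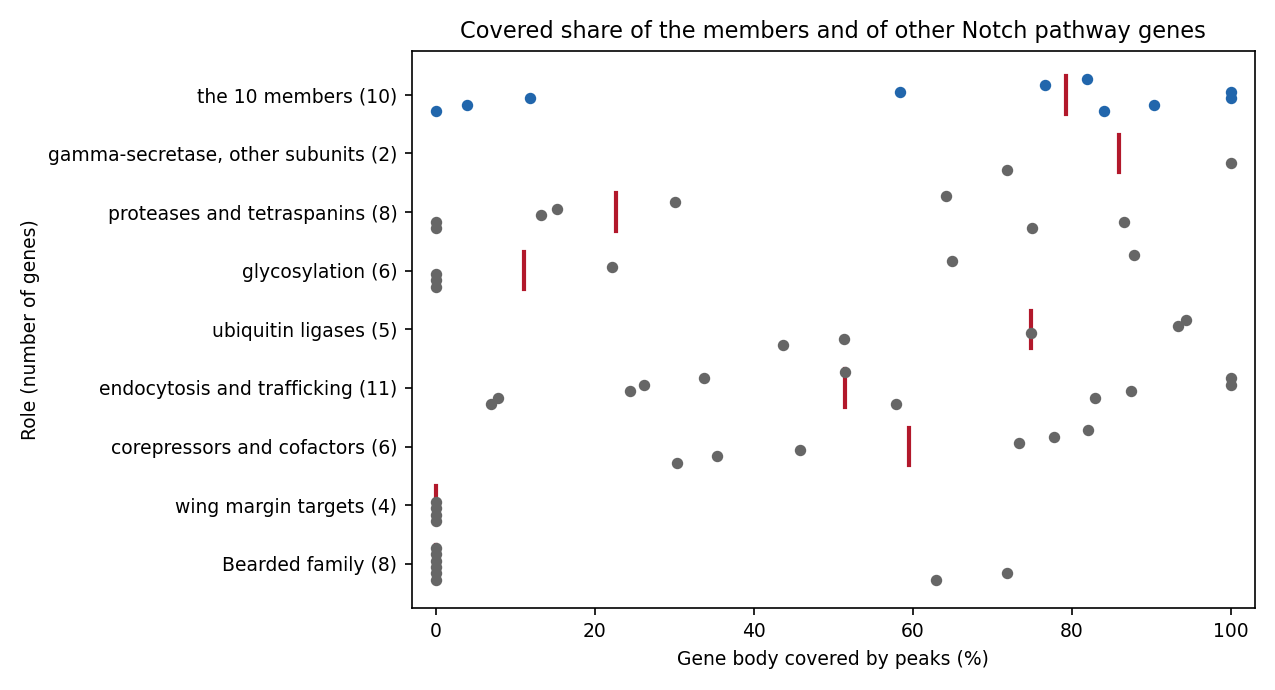
Percent of the gene body covered by H4K20me1 peaks (x axis) for the 10 genes and for the other pathway genes by role, with the number of genes in parentheses; each dot is a gene and each bar the median of its role (dots are spread vertically for legibility). Medians run from 0% in wing margin targets and the Bearded family to 85.9% in the other gamma-secretase genes.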

How the data were processed

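The authors' deposited list gives start, end and width of peaks, in base pairs, for Oregon-R; per the labels it sets H4K20me1 libraries (n = 3) against those lacking primary antibody (n = 3). The build is dm6, and Bowtie2, SAMtools, bedtools, edgeR and deepTools are named without versions or roles, per the submitters' processing notes. How peaks were called, at which threshold and whether libraries were pooled is not given in the sources used here. In the list, width equals end minus start plus 1 and boundaries lie on a 50 bp grid.

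Gene bodies came from the RefSeq table of Release 6, the same build, which has no strand or exons, so lower and higher coordinates are given in place of gene starts and ends. Covered bp were summed per body and per 10 kb flank with Python 3.11.15 and numpy 2.4.6, and the interval code was checked on 2000 simulated intervals (0 mismatches). Length deciles divide the 13922 protein-coding genes by length into 10 groups. Distances run from a gene end to the nearest peak base and are 0 where a peak crosses that end.

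The 10 genes and the pathway lists were chosen with earlier results of these data known. Text names the 10 genes, genes under their peaks, their nearest coding neighbours (1 is not reported here) and, in each role, the 2 most covered genes and the longest without a peak. Other genes named (rumi, wg, vg and dpn, the flank genes of N, neur, pen-2 and mam, and those in the closing section) were chosen after their values were seen. Nct and l(2)gd1 were listed as nct and lgd. No sequence or promoter motif was analysed here. Libraries of a group are not said to come from separate animals or days beyond 20 discs in each.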

Additional observations from a re-analysis of the deposited data

How the results depend on the processing

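No paired analysis was possible because the list holds 1 set of peaks for all libraries and no value per library, and for the same reason no replicate could be left out. The number of the 10 genes with a peak was 8 or 9 under the alternatives tried for overlap and peak width. It was 7 when at least 50% of the body had to be covered, which is stricter by construction. The number covered over at least 50% ranged from 6 to 7 under the alternatives for peak width, joining of peaks and share. The number with peak sequence in a flank ranged from 5 to 7 under those for overlap and flank size. The 4 genes with a marked body and free flanks became 3 with flanks of 20 kb, an alternative chosen after the data were seen. Su(H) lost its only peak when the wider 50% of the peaks or peaks of at least 1000 bp were used, and mam then stood at 8.69%. Joining peaks at most 2000 bp apart raised N from 84.1% to 96.7%, Delta from 58.3% to 73.9%, Ser from 76.7% to 82.1%, fng from 81.9% to 94.0% and mam from 11.9% to 17.2%. The other 31 of 40 recomputed covered shares moved by less than the 95% binomial interval over 50 bp steps. Some of these could not move, so the count is no measure of stability. No peak lies in neur, and N, Delta, Ser and Su(H) share no sequence with another coding gene that could be left out. Neighbouring steps lie in the same peaks and are not independent. The interval is thus only a yardstick for the size of a change and measures no replicate error. Of the other pathway genes, 35 had a peak. The number was 29 with the wider 50% of the peaks and 26 when the midpoint of a peak had to lie in the body. It was 22 when at least 50% of the body had to be covered, a stricter rule by construction. These alternatives were chosen after the data were seen. Of protein-coding genes that overlap no other, 32.02% had a peak, against 38.3% of all. Depth per library is unknown, so signal below the authors' threshold cannot be judged.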

Other observations

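Among the other pathway genes, numb, which antagonises Notch in asymmetric divisions, held 1 peak. This peak of 13750 bp covered 51.5% of numb and no peak lay in its 10 kb flanks. Of the 22 covered over at least 50%, numb alone had free flanks. Over all protein-coding genes covered to that extent the share was 3.92%, and among those of 10 kb or more, such as numb, it was 14.2%. The count of 1 in 22 is near the first of these shares. Among the 35 genes with a peak, lqf, covered to 24.5%, was the only further gene with free flanks. At wg, the Wnt ligand gene that Notch activates at the wing margin, there was no peak in the body or within 10 kb on either side, and the same was true of BobA, whereas vg, dpn and ct had peaks in a flank. The metalloprotease gene kuz, which makes the cut that precedes gamma-secretase, held 13 peaks over 64.1% of its 89273 bp. Fur1 held 23 peaks, the most of the pathway genes listed, but they covered 13.2% of its 125628 bp. These genes were chosen after their values were seen, and no difference was tested.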
